A study of Mus musculus with 12 samples.

Results

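The 48 genes described here encode proteins of the mitotic spindle, the kinetochore, the cyclin-CDK machinery of mitosis and cytokinesis, and were taken from a list fixed by name. Of the 48, 45 were matched to a probe set of the array, among 12393 genes named on it, and each is represented by its probe set with the highest mean over the 12 arrays. The deposited values placed 44 of the 45 above the median probe-set mean of 3.98 (log2 signal), the filter a gene had to pass to be tested. The member just below the filter was Cdc25c, the phosphatase that switches on CDK1, with a mean of 3.31, and the member just above it was Cenpe, the kinetochore-bound kinesin that brings chromosomes to the spindle equator, with a mean of 4.39. Ccnb1, Cdca8 and Espl1 were not analysed here.

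Dividing cells make most of these transcripts in G2 and mitosis. Cyclin B with CDK1 starts mitosis, polo-like and Aurora kinases build the spindle, kinetochores tie chromosomes to microtubules, and the spindle checkpoint holds back the anaphase-promoting complex until every chromosome is attached. Anaphase then cuts the link between sister chromatids, and the central spindle directs the furrow that parts the daughter cells. In tumour tissue the summed level of such transcripts is widely used as a measure of how many cells are cycling.

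The samples were whole mammary tumours of female FVB mice, all of which carried an MMTV-c-myc transgene. The mouse mammary tumour virus promoter of the transgene drives c-Myc mainly in mammary epithelium, so that every tumour in both groups arose with forced Myc expression. In 6 samples (Hunk KO) the mice lacked Hunk, a protein kinase of the AMPK and Snf1 family, through an allele in which a pGKneo cassette flanked by LoxP sites took the place of the putative promoter and exon 1, in all cells and not only in the tumour. The other 6 samples (Hunk WT) came from mice with intact Hunk, and females of both groups had been mated before tumours arose. Ages are not given in the sources used here. The labels number the samples 1 to 6 in each group without stating that they came from separate tumours or mice, and p-values here measure only how these samples vary, which could be partly technical.

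Each sample was measured on 1 Affymetrix array. The array medians lay between 3.87 and 4.10 on the log2 scale, and precision is limited by there being 6 arrays in a group. Hunk itself read 2.95 ± 0.17 on knockout arrays and 4.21 ± 1.05 on wild-type arrays (SD, n = 6 each), and it was above array background on 4 of the 12, all wild type. That background, the highest Bacillus control probe set of each array, lay between 3.45 and 4.00. Myc was high in both groups (12.97 ± 0.47 and 13.22 ± 0.24, SD, n = 6 each), and the epithelial markers Krt8, Krt18, Epcam and Cdh1 were above background on all 12 arrays. Knockout arrays 4 and 5 were the most alike, since the SD of their difference over all probe sets was 0.259, against 0.412 for the next pair. A log2 change is the knockout mean minus the wild-type mean throughout, and a gene is said to have fallen or risen only where limma's Benjamini-Hochberg adjusted p over the 6825 genes tested was under 0.05.

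Many genes of the late cell cycle carry a CCAAT box, which NF-Y binds, and a TTTGAA element near the start site, known as the cell cycle genes homology region and bound by the DREAM and B-MYB complexes. The promoter stretches of 7 members are shown because they cover all 5 genes that fell, Top2a with its many CCAAT boxes, and Prc1, the member with the smallest change. Each runs from 130 bases before the annotated start to 20 bases after it, in the direction of the gene, and comes from RefSeq (GRCm38.p6). Capitals mark CCAAT or its reverse complement ATTGG, and TTTGAA or its reverse complement TTCAAA.
Cdc20, chr4:118437324-118437473, minus strand: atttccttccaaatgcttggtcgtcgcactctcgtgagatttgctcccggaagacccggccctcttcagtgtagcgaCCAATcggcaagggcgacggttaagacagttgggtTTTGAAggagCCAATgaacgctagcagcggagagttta
Kif11, chr19:37376252-37376401, plus strand: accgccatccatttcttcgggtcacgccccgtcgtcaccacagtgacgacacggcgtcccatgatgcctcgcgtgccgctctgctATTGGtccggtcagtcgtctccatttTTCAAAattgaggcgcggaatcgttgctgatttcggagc
Cenpf, chr1:189688067-189688216, minus strand: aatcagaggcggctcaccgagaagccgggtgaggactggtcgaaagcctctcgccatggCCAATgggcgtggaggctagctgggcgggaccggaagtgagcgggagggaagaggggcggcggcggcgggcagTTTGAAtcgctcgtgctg
Ttk, chr9:83834559-83834708, plus strand: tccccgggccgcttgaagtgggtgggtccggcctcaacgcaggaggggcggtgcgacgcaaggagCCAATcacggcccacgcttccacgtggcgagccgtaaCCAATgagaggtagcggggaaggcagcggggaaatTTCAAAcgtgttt
Top2a, chr11:99024170-99024319, minus strand: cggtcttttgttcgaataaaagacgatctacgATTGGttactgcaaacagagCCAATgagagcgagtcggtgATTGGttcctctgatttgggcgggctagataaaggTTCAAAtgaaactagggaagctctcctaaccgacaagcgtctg
Mad2l1, chr6:66535091-66535240, plus strand: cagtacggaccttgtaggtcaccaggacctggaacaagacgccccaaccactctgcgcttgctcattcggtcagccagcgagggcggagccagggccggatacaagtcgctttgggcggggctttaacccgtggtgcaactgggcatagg
Prc1, chr7:80294321-80294470, plus strand: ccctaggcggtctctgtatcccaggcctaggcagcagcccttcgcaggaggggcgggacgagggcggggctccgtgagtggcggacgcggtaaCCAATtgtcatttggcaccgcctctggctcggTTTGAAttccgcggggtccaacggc

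RefSeq promoter windows of 300 bases, 250 before the start and 50 after it, were found for 40 of the 48 members. Ccna2, Foxm1, Cdc25c, Aurkb, Incenp, Tpx2, Kif20a and Smc4 had no entry. On either strand, 30 of the 40 held CCAAT, 28 held TTTGAA (70.0%) and 25 held both (62.5%). Among all 27025 genes with a window the shares were 41.1%, 20.2% and 7.97%, and among the 5579 tested genes with a window 43.0%, 14.3% and 5.92%. The 2 motifs can share no more than an end base. The shares thus lay above those of all promoters, as a description of letters in a window and not of bound sites.

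Within the printed stretches, Cdc20 had CCAAT starting 53 and 8 bases before the start and TTTGAA 18 bases before it. Kif11 had the reverse complements, 45 and 19 bases before the start. Ttk and Cenpf had their TTTGAA match inside the transcribed sequence, from base 8 (as TTCAAA) and base 3. Top2a had 6 CCAAT matches in its 300-base window, of which 3 lie in the printed stretch, and 2 TTTGAA matches, of which 1 is printed. Mad2l1, which fell in the tumours, had neither motif in its window. Prc1, whose level differed little between the groups, had both, shown for the first of its annotated starts. Both motifs were present in 4 of the 5 members that fell and in 19 of the 32 tested members with a window that did not pass. Members of both kinds thus held these letters, and any part of the motifs in the changes was not tested.

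Knockout against wild-type tumours was the one comparison of the design, and it asked how the transcripts of the dividing cell differ between Myc tumours with and without Hunk. Cdc20, Kif11, Cenpf, Mad2l1 and Ttk fell in the knockout, by 1.63-fold to 2.24-fold, and no member rose. That is 5 of 44 tested members, where 1.68% of all genes tested fell. The groups did not overlap for 3 of the 5, Cdc20, Kif11 and Cenpf, where 1.44% of all genes had every knockout array below every wild-type array. All 44 changes were below 0 in this fit, against 49.2% of all genes tested. Other settings gave fewer, such as 43 with quantile normalization, where Prc1 had a change of 0.01, and 42 without knockout array 6. With the beta-actin or Gapdh control difference described below as a term, 30 and 41 were below 0. The median log2 change of the 44 was -0.53 and their range ran from -1.25 for Racgap1 to -0.03 for Prc1, while the median over all genes tested was 0.0065.

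The other 39 tested members did not pass. Without adjustment, 24 of the 44 had p under 0.05 and a lower knockout mean (54.5%), against 10.5% of all genes tested, and 0 had a higher one. Members of 1 pathway are not independent of each other, and in bulk tumour RNA fewer dividing cells and less of these transcripts per dividing cell cannot be told apart. Leaving out knockout array 4, 5 or 6 or wild-type array 4 or 6 left 3 calls, and leaving out knockout array 1 gave 10, the added ones being Ccnb2, Cdk1, Cenpa, Mki67 and Top2a. Cdc20, Kif11 and Cenpf were called in 12 of 12 such fits, with adjusted p up to 0.0343, 0.0499 and 0.0456.

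**Figure D1:**
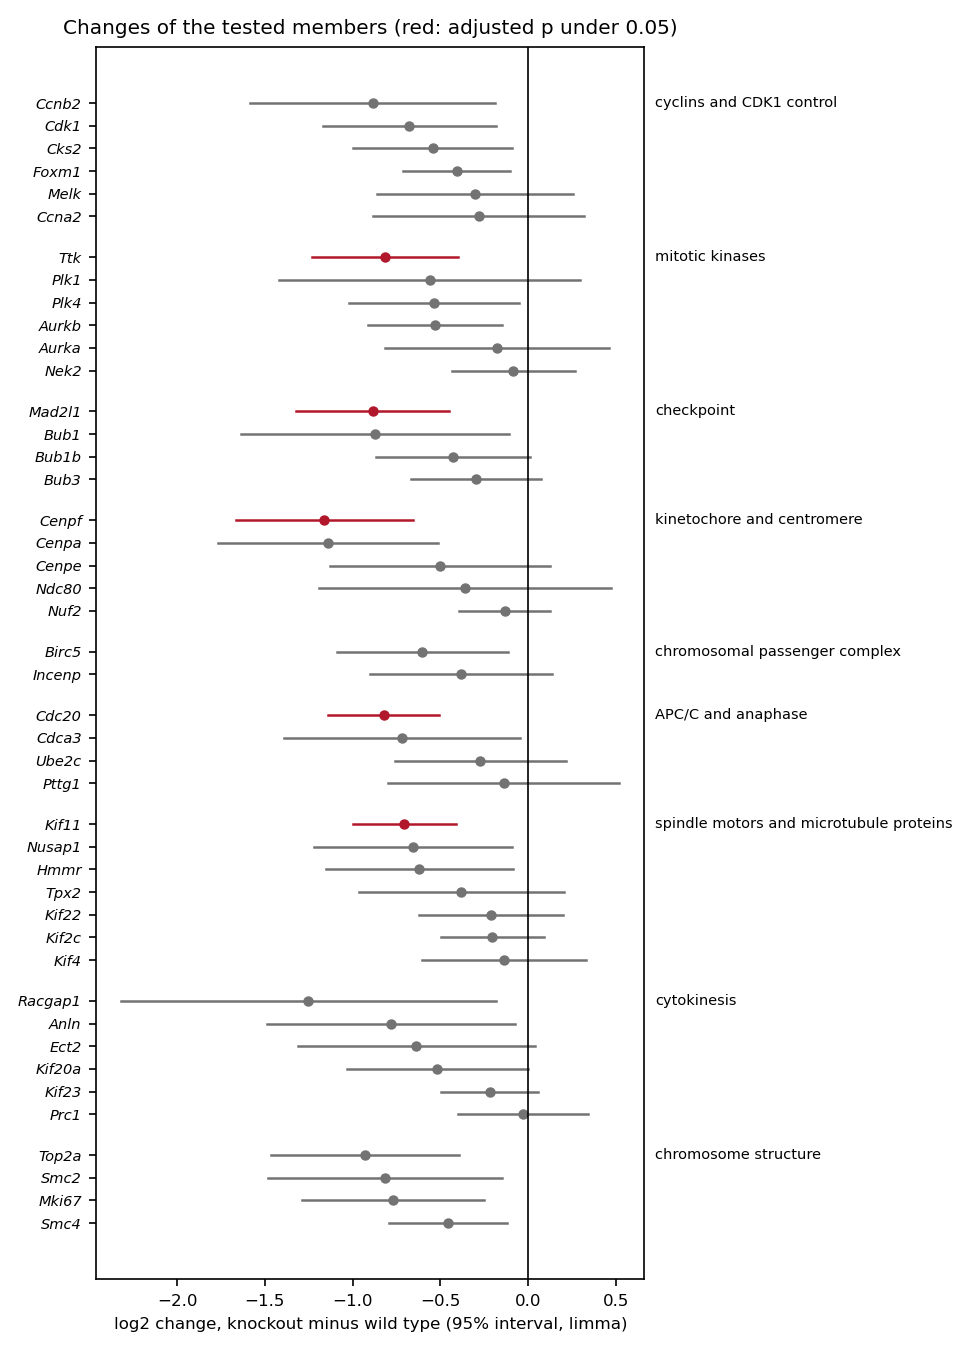
Log2 change (knockout minus wild type, horizontal axis) of each of the 44 tested members with its 95% confidence interval from limma, 6 arrays a group, in blocks by role. Red marks the 5 members with adjusted p under 0.05, and all 44 points lie left of 0. Other settings moved some members above 0, such as Prc1 (0.01) with quantile normalization and 14 members with the beta-actin term.

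A control of RNA quality differed between the groups. The signal of the beta-actin control probe set at the 3' end minus that at the 5' end, larger where RNA is degraded or cDNA is short, averaged 1.51 ± 0.15 over knockout arrays and 1.29 ± 0.05 over wild-type arrays (SD, n = 6 each). An exact permutation test, counting both directions, gave p = 0.0108, where the smallest possible p is 0.00216. It read 1.26 on knockout array 1 and between 1.5 and 1.72 on the other 5, against 1.21 to 1.34 in the wild type. The Gapdh difference was 0.20 ± 0.08 against 0.09 ± 0.08 (SD, n = 6 each, exact permutation p = 0.0455). Knockout array 1, the only knockout array inside the wild-type range of the beta-actin difference, was also the knockout array with the highest level of the members.

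**Figure D2:**
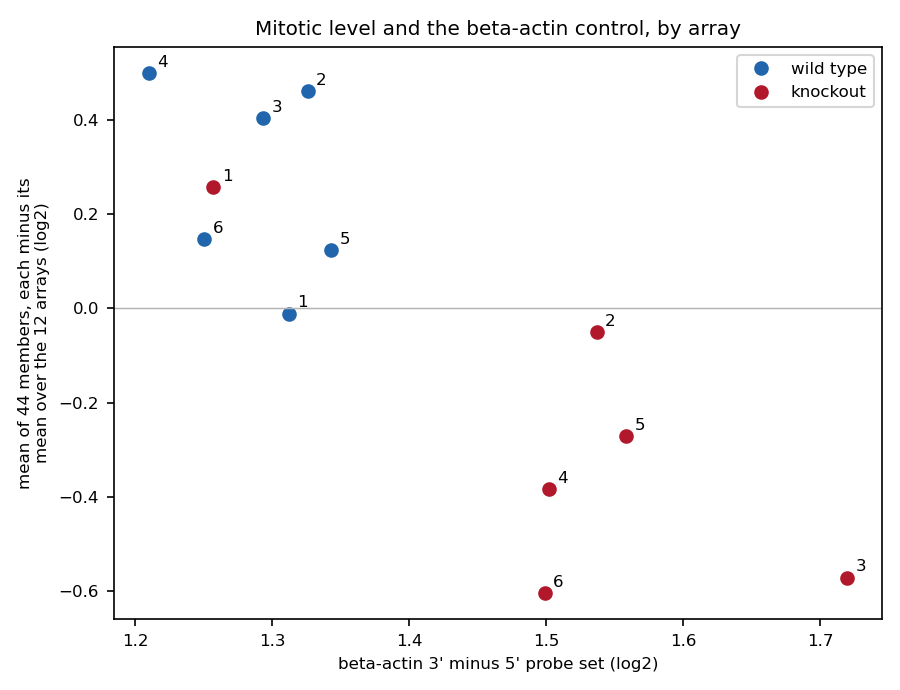
Mean of the 44 members on each array, each relative to its own mean over the 12 arrays (vertical axis, log2), against the beta-actin 3' minus 5' difference (horizontal axis, log2), points numbered by replicate. Knockout array 1, at 1.26 and 0.26, lies among the wild-type arrays, and the other 5 knockout arrays lie between 1.5 and 1.72 and below every wild-type array.

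With the beta-actin difference as a term in the fit, 0 of the 44 members passed (limma), 7 had an unadjusted p under 0.05 and a lower knockout level, and the median change was -0.17. Calls became fewer over all genes tested too, where 0.366% fell with the term and 1.68% without it. Of the 44, 30 stayed below 0. The 5 members lost their calls, with adjusted p of 0.144 to 0.402. Their changes went from -1.16 to -1.03 for Cenpf, from -0.82 to -0.67 for Ttk, from -0.71 to -0.63 for Kif11, from -0.82 to -0.61 for Cdc20 and from -0.89 to -0.50 for Mad2l1. Standard errors were a median of 1.40 times larger in that fit. The Gapdh difference as a term also left 0 called and 8 with an unadjusted p under 0.05, where 0.308% of all genes tested fell. The members' median change was -0.35 in that fit, with 41 members below 0. The share of all genes at an unadjusted p under 0.05 is not given for either fit, so the counts of 7 and 8 lack a background. The 14 members above 0 with the beta-actin term are named with their role groups, and the part of RNA quality in the members' differences was not tested beyond these fits.

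Among cyclins and the control of CDK1, 0 of 6 tested members passed the limma threshold and 4 had an unadjusted p under 0.05, with a median change of -0.48. Ccnb2, the B-type cyclin that activates CDK1, had the largest change of the group. Its log2 signal had a lowest, median and highest value of 6.06, 6.66 and 8.04 in the knockout and of 7.35, 7.70 and 8.16 in the wild type. The groups overlapped, since knockout array 1 (8.04) and knockout array 2 (7.50) lay within the wild-type range and the other 4 lay below it. The change was -0.89 (SE 0.32, adjusted p = 0.152).

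Cdk1, the mitotic kinase itself, had a change of -0.68 (adjusted p = 0.128). Its wild-type arrays were tight, from 9.49 to 9.78, and 5 of 6 knockout arrays lay below all of them, while knockout array 1, at 9.88, lay above all of them. Cks2, a small CDK-binding subunit, had a change of -0.54 and Foxm1, a transcription factor of G2 and M genes, of -0.41 (adjusted p = 0.172 and 0.138). For both, all 6 knockout arrays lay below the wild-type mean. Melk, a kinase of dividing cells, and Ccna2, the cyclin of S phase and G2, had changes of -0.30 and -0.28. Cdc25c, below the filter, was above background on 1 of the 12 arrays and has no usable fold. With the beta-actin term the median change of the 6 was -0.0070, with Ccnb2 (0.05), Ccna2 (0.37) and Melk (0.39) above 0.

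Among the mitotic kinases, Ttk fell and the other 5 did not pass. Ttk, also called MPS1, starts the spindle checkpoint at unattached kinetochores. Its lowest, median and highest values were 4.49, 4.94 and 5.37 in the knockout and 5.29, 5.79 and 6.19 in the wild type. Knockout arrays 1 and 3 overlapped with wild-type array 5, the lowest of its group, and 4 of 6 knockout arrays lay below every wild-type array. The change was -0.82 (SE 0.19, limma adjusted p = 0.0393), or 1.76-fold lower. The call was lost when any 1 of knockout arrays 2, 4, 5 and 6 or wild-type arrays 1, 3, 4 and 6 was left out, with adjusted p up to 0.0920 and a change between -0.91 and -0.72.

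Plk1, the polo-like kinase of spindle assembly and cytokinesis, had a change of -0.56 with a wide spread in both groups (SD 0.79 and 0.70, adjusted p = 0.438). Plk4, which controls centriole duplication, had a change of -0.54, and Aurkb, the kinase of the chromosomal passenger complex, of -0.53, with all 6 Aurkb knockout arrays below the wild-type mean. Aurka, the kinase of spindle poles, had a change of -0.18, knockout array 1 (7.49) being above every wild-type array. Nek2, a kinase of centrosome separation, differed least, at -0.08 (adjusted p = 0.792). The kinases thus ranged from a called fall to a difference smaller than the spread between arrays. The median of the 6 kinases was -0.33 with the beta-actin term, Aurka (0.36) and Plk1 (0.40) being above 0.

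In the spindle assembly checkpoint Mad2l1 fell, and Bub1, Bub1b and Bub3 did not pass. Mad2l1, which forms the inhibitor of CDC20 at unattached kinetochores, had lowest, median and highest values of 7.18, 7.52 and 8.22 in the knockout and 8.20, 8.61 and 8.81 in the wild type. Only knockout array 1 reached into the wild-type range, at 8.22 against 8.20 on wild-type array 3. The change was -0.89 (SE 0.20, limma adjusted p = 0.0355), or 1.85-fold lower. The call was lost when any 1 of knockout arrays 3, 4, 5 and 6 or wild-type arrays 1, 2, 4 and 6 was left out, with adjusted p up to 0.0839 and a change of -0.79 or lower.

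Bub1, a kinase that recruits checkpoint proteins, had a change as large (-0.87) but a knockout SD of 0.83, and its adjusted p was 0.194. Bub1b, or BUBR1, a part of the inhibitor of the anaphase-promoting complex, had a change of -0.43, and Bub3, its partner at the kinetochore, of -0.30 (adjusted p = 0.268 and 0.344). The Bub3 probe set ends in _s_at, a kind that can match related transcripts, as do those used for Cks2, Aurkb, Plk4 and Pttg1. Those used for Cdc20, Incenp and Kif22 end in _x_at. With the beta-actin term the 4 checkpoint genes had a median of -0.44, and Bub3 (0.13) was above 0.

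Among kinetochore and centromere genes, Cenpf fell and Cenpa, Cenpe, Ndc80 and Nuf2 did not pass. Cenpf, a large protein of the outer kinetochore that accumulates in G2, had lowest, median and highest values of 5.48, 6.07 and 6.57 in the knockout and of 6.66, 7.13 and 8.01 in the wild type. The groups did not overlap, the nearest arrays being knockout array 1 and wild-type array 1. The change was -1.16 (SE 0.23, limma adjusted p = 0.0222), or 2.24-fold lower.

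Cenpa, the histone H3 variant that marks centromeres, had a change as large, -1.14 (SE 0.29), and lay just outside the threshold with an adjusted p of 0.0524. Its knockout arrays ran from 6.03 to 7.72 and its wild-type arrays from 7.69 to 8.77, so that knockout array 1 alone reached the wild-type range. It was called without knockout array 1 or 2 and in no other fit that left out an array. Cenpe had a change of -0.50. It was high on wild-type arrays 3 and 4 (5.59 and 5.52), and its other 10 arrays ran from 3.76 to 4.46.

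Ndc80 and Nuf2, which form the arm of the NDC80 complex that grips microtubules, did not move together. Ndc80 had a change of -0.36 and read 6.09 on knockout array 1 but 4.10 to 4.21 on the other 5 knockout arrays. Nuf2 had a change of -0.13 and was lowest on that same array, at 4.20. Both had low signals, with means of 4.67 and 4.70 over the 12 arrays. The 5 kinetochore and centromere genes had a median of -0.44 with the beta-actin term, and Ndc80 (0.59) was above 0.

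**Figure D3:**
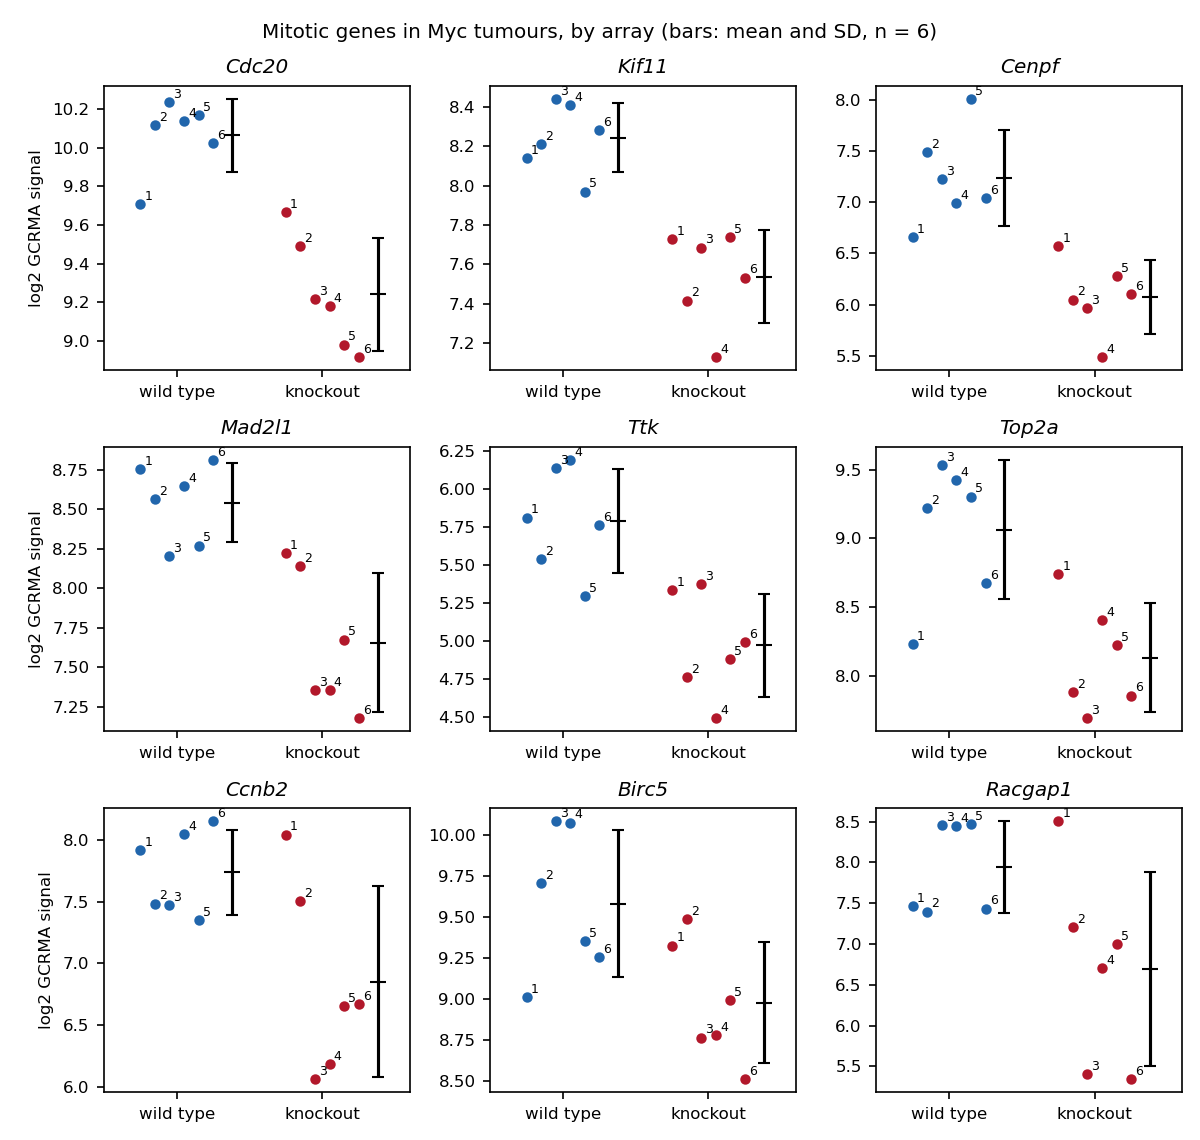
Log2 GCRMA signal of 9 members on each array (blue wild type, red knockout, points numbered by replicate, vertical axes not starting at 0) with the group mean and SD, n = 6. The 2 groups do not overlap for Cdc20, Kif11 and Cenpf, and knockout array 1 is the highest knockout array for Cdc20, Cenpf, Mad2l1, Top2a, Ccnb2 and Racgap1.

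The chromosomal passenger complex, which corrects faulty attachments and later marks the cleavage site, was represented by Birc5 and Incenp, and neither passed. Birc5, or survivin, had lowest, median and highest values of 8.51, 8.89 and 9.49 in the knockout and 9.01, 9.53 and 10.08 in the wild type. The ranges overlapped, with 4 of 6 knockout arrays below every wild-type array. The change was -0.60 (SE 0.22, limma adjusted p = 0.160). Incenp, the scaffold of the complex, had a change of -0.38 (adjusted p = 0.388). Both stayed below 0 with the beta-actin term, with a median of -0.25.

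Of the genes of the anaphase-promoting complex and anaphase, Cdc20 fell and Cdca3, Ube2c and Pttg1 did not pass. Cdc20, the activator through which the complex destroys securin and cyclin B, had lowest, median and highest values of 8.91, 9.20 and 9.67 in the knockout and of 9.71, 10.13 and 10.24 in the wild type. The groups did not overlap, although knockout array 1 (9.67) and wild-type array 1 (9.71) were close. The change was -0.82 (SE 0.15, limma adjusted p = 0.0118), or 1.77-fold lower, the smallest adjusted p among the members.

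Cdca3, a trigger of mitotic entry that acts in protein degradation, had a change of -0.72 (adjusted p = 0.226). Ube2c, the ubiquitin-conjugating enzyme that works with the complex, had a change of -0.27. Pttg1, or securin, the inhibitor of separase, had a change of -0.14. For these 3 genes knockout array 1 was the highest knockout array, at 8.04, 10.20 and 9.92, and for Ube2c and Pttg1 it lay above every wild-type array. The changes of the 4 anaphase genes, Cdc20 included, thus ran from -0.82 to -0.14, and whether these changes differ from each other was not tested. With the beta-actin term the median of the 4 anaphase genes was 0.12, and Ube2c (0.24), Pttg1 (0.69) and Cdca3 (0.0046) were above 0.

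Among spindle motors and microtubule proteins, Kif11 fell and 6 did not pass. Kif11, the kinesin that pushes spindle poles apart, had lowest, median and highest values of 7.13, 7.61 and 7.74 in the knockout and of 7.97, 8.25 and 8.44 in the wild type. The groups did not overlap, and the nearest were knockout array 5 and wild-type array 5. The change was -0.71 (SE 0.14, limma adjusted p = 0.0183), or 1.63-fold lower.

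Nusap1 and Hmmr, which bundle or bind spindle microtubules, had changes of -0.66 and -0.62 (adjusted p = 0.186 for each). Tpx2, the activator of Aurora A on the spindle, had a change of -0.38. The chromosome-arm kinesins Kif22 and Kif4 had changes of -0.21 and -0.14, and Kif2c, which takes microtubules apart at centromeres, of -0.20. By their brightest probe sets, those 3 kinesins were the members of this group nearest to 0. Second probe sets of Kif22 and Kif2c had changes of -0.78 and -0.98. In the fit with the beta-actin term the 7 genes had a median of -0.09, and Kif4 (0.47) and Tpx2 (0.09) were above 0.

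Among cytokinesis genes 0 of 6 passed the limma threshold, and 3 had an unadjusted p under 0.05. Racgap1, the GTPase-activating subunit of the centralspindlin complex, had the largest change of all members and the largest spread. Its lowest, median and highest values were 5.34, 6.85 and 8.51 in the knockout and 7.40, 7.96 and 8.47 in the wild type. Knockout array 1 lay above every wild-type array and the other 5 knockout arrays below every one of them. The change was -1.25 (SE 0.49, adjusted p = 0.181).

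Kif23, the kinesin partner of Racgap1 in centralspindlin, had a change of only -0.22. Anln, the furrow protein anillin, had a change of -0.78, and Ect2, the RhoA activator that centralspindlin recruits, of -0.64. Kif20a, a kinesin of the central spindle, had a change of -0.52 (adjusted p = 0.254). Prc1, which cross-links the microtubules of the central spindle, ran from 7.27 to 7.90 in the knockout and from 7.26 to 8.15 in the wild type, a change of -0.03 (95% confidence interval -0.40 to 0.34). The 6 cytokinesis genes had a median of -0.11 with the beta-actin term, in which Racgap1 (0.02) and Prc1 (0.11) were above 0.

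Of the chromosome structure genes 0 of 4 passed, but all 4 had an unadjusted p under 0.05, and the group's median change of -0.79 was the lowest of the 9 role groups. Top2a, the topoisomerase that untangles sister chromatids, had lowest, median and highest values of 7.69, 8.06 and 8.74 in the knockout and 8.23, 9.26 and 9.53 in the wild type. Wild-type array 1, at 8.23, was the only wild-type array below the knockout maximum apart from wild-type array 6, at 8.67. The change was -0.93 (SE 0.25, limma adjusted p = 0.0614), and it was called without wild-type array 1 or knockout array 1.

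Mki67, the marker of cycling cells that coats mitotic chromosomes, ran from 8.12 to 9.36 in the knockout and from 8.84 to 10.03 in the wild type. Knockout array 1 had the highest knockout value, and the other 5 lay below every wild-type array. The change was -0.77 (SE 0.24, adjusted p = 0.102). Smc2 and Smc4, the ATPases at the core of condensin, had changes of -0.81 and -0.46 (adjusted p = 0.165 and 0.133), with all 6 knockout arrays below the wild-type mean for both. All 4 chromosome structure genes stayed below 0 with the beta-actin term, with a median of -0.33.

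The arrays of a group also differed among themselves. The mean over the 44 members, each taken relative to its own mean over the 12 arrays, was 0.26, -0.05, -0.57, -0.38, -0.27 and -0.60 on knockout arrays 1 to 6 and -0.01, 0.46, 0.40, 0.50, 0.12 and 0.15 on wild-type arrays 1 to 6. Knockout array 1 therefore lay among the wild-type arrays, and the other 5 below all of them. Knockout array 1 held the highest knockout value of 25 of the 44 members, and knockout arrays 6 and 3 the lowest of 17 and 11. In the wild type, arrays 1 and 5 held the lowest value of 19 and 14 members.

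Knockout arrays differed in how many members lay below the whole wild-type range, with 9, 13, 28, 22, 20 and 33 of 44 on arrays 1 to 6. Below the wild-type mean were 25 of 44 on knockout array 1 and 38 to 44 on the others. Cdc20, Kif11 and Cenpf, whose groups did not overlap, are by definition among the 9 on knockout array 1. The SD was larger in the knockout for 28 of the 44 members, with a median of 0.43 against 0.36 in the wild type.

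**Figure D4:**
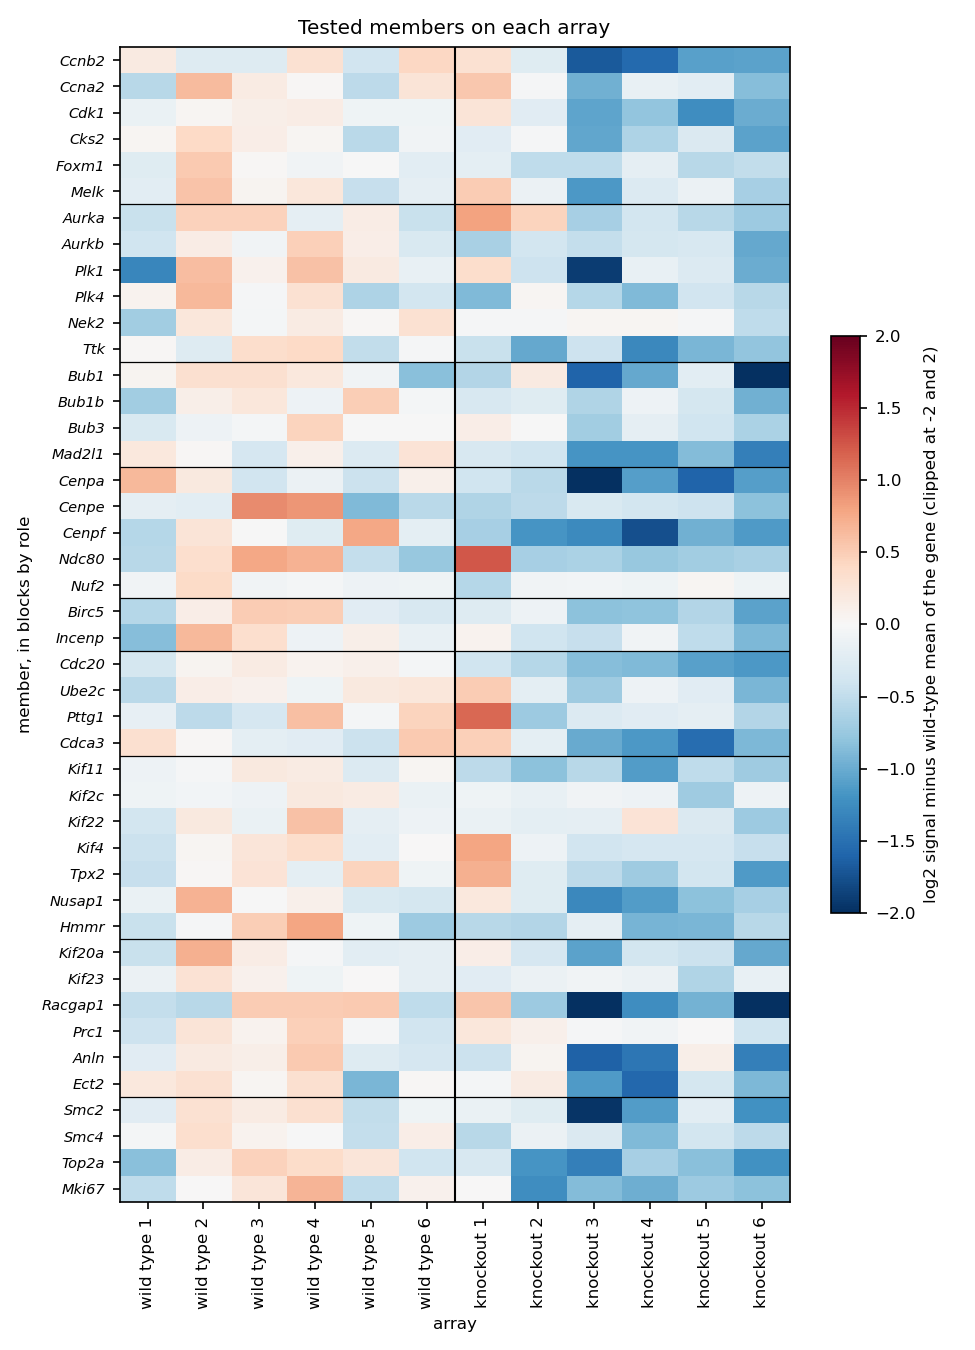
Log2 signal of each of the 44 tested members minus that gene's wild-type mean, for the 12 arrays, with members in blocks by role and colours clipped at -2 and 2. Blue fills most of knockout arrays 3 to 6, while knockout array 1 is mixed, with 25 of 44 members below the wild-type mean.

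The members varied together within the groups. With group means removed, the median Pearson correlation over the 946 pairs of members was 0.37 on 12 arrays, and 85.2% of pairs were above 0. These values share the arrays and their normalization and are given as a description, without the same values for pairs of all genes. Kif4, Melk, Kif20a, Birc5 and Ccna2 followed the mean of the other members most closely, with correlations of 0.90 to 0.85. Nuf2 (-0.30), Kif2c (0.03) and Kif23 (0.07) followed it least. Knockout array 1, the highest knockout array in the members' mean, was far from the rest of its group for Kif4 (high, 6.36) and Nuf2 (low, 4.20). How far the ranking rests on that array was not tested.

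The members that fell lay between those ends. The correlation with the mean of the others was 0.79 for Cdc20, 0.61 for Mad2l1, 0.33 for Kif11 and Cenpf and 0.22 for Ttk. Kif4 and Melk, at the top, had changes of -0.14 and -0.30. A member could thus track the shared variation among arrays and still differ little between the groups.

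Markers of other cell types were read on the same arrays. Adipocyte markers summed to a linear signal of 769 to 4336 in the knockout and 537 to 851 in the wild type, with 5 of 8 measured above background on some array and Lep, Retn and Cidec on none. Luminal epithelial markers, 10 of 10 above background, summed to 12662 to 21507 and 10302 to 18038. Of 10 luminal markers tested, Krt19 rose in limma and 5 were higher and 0 lower at an unadjusted p under 0.05, with a median change of 0.45. Of 4 adipocyte markers tested, Pnpla2 rose and 3 were higher and 0 lower at that p, with a median change of 1.09. In the basal, fibroblast, endothelial, macrophage, T cell, B cell, skeletal muscle and erythroid lists 0 of 30 tested markers were called, with an unadjusted p under 0.05 for 5 higher and 3 lower. The median changes of these 8 lists were 0.13, 0.68, -0.03, -0.17, 0.07, 0.13, 0.80 and 0.38, and skeletal muscle markers reached 8232 on a knockout array against at most 529 in the wild type. The part of cell composition in the members' differences was not tested.

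Genes with several probe sets gave a second reading. The 44 members had 66 tested probe sets, of which 63 had a change below 0 and 7 fell, for 7 members, where 1.28% of the 11313 probe sets tested fell. The 2 further members were Aurkb and Kif2c. A second Aurkb probe set had a change of -1.29 (limma adjusted p = 0.0361 over probe sets), against -0.53 for the brighter one. A second Kif2c probe set had a change of -0.98 (adjusted p = 0.0188) with no overlap between groups, its knockout arrays running from 4.92 to 5.92 and its wild-type arrays from 6.37 to 6.96, against -0.20 for the brighter one.

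For Cdc20, Kif11, Racgap1 and Hmmr a further probe set had a change near that of the brightest. The second Cdc20 probe set, which unlike the brighter one does not end in _x_at, had a change of -0.84 (adjusted p = 0.0566). The second Kif11 probe set had a change of -0.73 and a still dimmer one of -0.19. The Racgap1 probe set had a change of -1.16, and the 4 Hmmr probe sets of -0.62 to -0.85. Second probe sets of Kif22 and Ccna2 had larger changes, -0.78 and -0.74, against -0.21 and -0.28 for the brighter ones. Neither passed (limma adjusted p = 0.215 and 0.396 over probe sets), and a still dimmer Kif22 probe set had a change of -0.21. The tested Kif23 probe sets differed in sign, at -0.22 and 0.23, as did those of Bub3 and Top2a, whose dimmer probe sets, near background, had changes of 0.09 and 0.02.

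Of 125 other mitotic genes listed, 71 were tested, 4 fell and 0 rose, with 60 of 71 below 0 and a median change of -0.24. At an unadjusted p under 0.05 in limma, 21 were lower (29.6%) and 2 higher. Over all genes tested 1.68% fell, 49.2% were below 0 and 10.5% were lower at that unadjusted p. Of this list 1 gene was called with the beta-actin term, 0 with the Gapdh term (10 lower at an unadjusted p under 0.05) and 1 with no expression filter. No share of all genes at that p is given for the Gapdh fit. The 4 that fell were Ncapd2, a subunit of condensin I (-1.28, limma adjusted p = 0.0176), the spindle protein Spag5 (-1.11, adjusted p = 0.0282), the CDK-binding subunit Cks1b (-0.68, adjusted p = 0.0316) and Zwilch, a kinetochore protein of the checkpoint (-0.87, adjusted p = 0.0436). When any 1 of knockout arrays 3, 4 and 6 or wild-type arrays 1, 2, 3, 4 and 6 was left out, 1 or 2 of the list were called. The groups did not overlap for 2 genes of the list, where 1.44% of all genes tested were so. These were Spag5, with knockout arrays at 4.89 to 5.73 and wild-type arrays at 5.80 to 7.17, and Zwint, which did not pass. Plk2, a stress-responsive kinase, had the largest negative change (limma adjusted p = 0.127). It was at background on all 6 knockout arrays and above background on only 4 of 6 wild-type arrays. The wild-type arrays ran from 3.46 to 6.02, and the bound of 2.03-fold compares group means across that spread. Nek7, a kinase of the NIMA family, had the largest positive change (0.40, adjusted p = 0.118).

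Of 55 DNA replication genes listed, 48 were tested, 3 fell and 0 rose, with 45 of 48 below 0 and a median change of -0.46. At an unadjusted p under 0.05 in limma, 22 were lower (45.8%) and 0 higher. The shares over all genes tested were the same 1.68%, 49.2% and 10.5% as above. With the beta-actin term, the Gapdh term or no expression filter 0 of the list were called in limma, and 8, 9 and 21 were lower at an unadjusted p under 0.05. Shares of all genes at that p are not given for those fits. The 3 that fell were Rpa3, a subunit of the single-strand binding protein (-1.20, limma adjusted p = 0.0282), the origin-firing kinase Cdc7 (-1.42, adjusted p = 0.0380, at background on 3 knockout arrays) and the thymidine kinase Tk1 (-1.05, adjusted p = 0.0384). Without knockout array 6 or wild-type array 4, 0 were called, and without knockout array 3, 4 or 5 or wild-type array 3, 1 was. Ccne2, a cyclin of S phase entry, had the largest positive change (0.23, adjusted p = 0.664). The mean of the replication genes, each relative to its own mean, was -0.06, -0.08, -0.50, -0.05, -0.0027 and -0.61 on knockout arrays 1 to 6. Arrays 1, 2, 4 and 5 thus lay within the wild-type range of -0.11 to 0.53, while for the 44 members array 1 alone did so. Whether the lists differ was not tested.

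**Figure D5:**
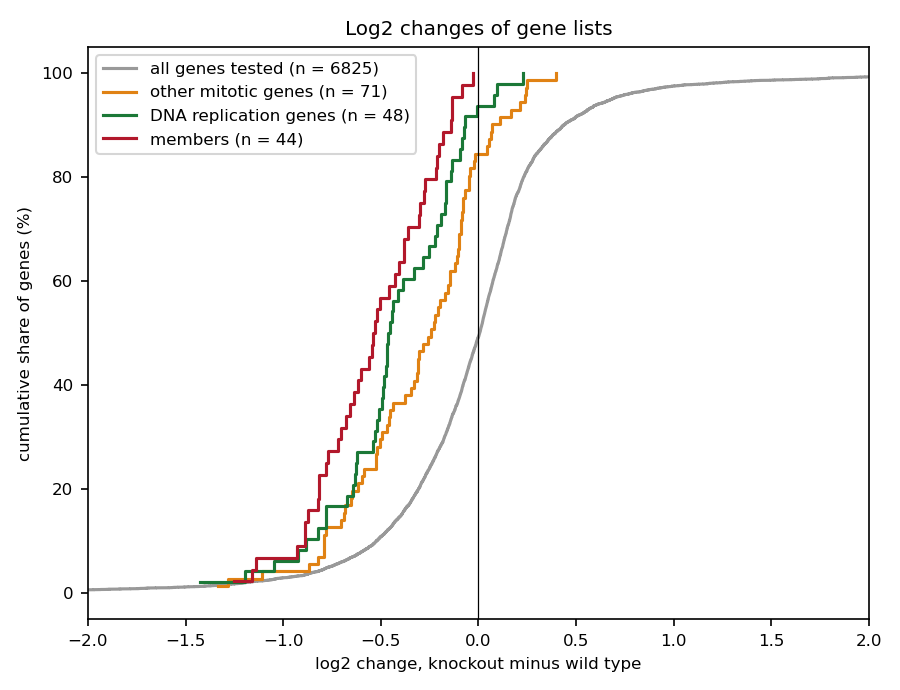
Cumulative share of genes (vertical axis, %) by log2 change, knockout minus wild type, for the 44 members, 71 other mitotic genes, 48 replication genes and all 6825 genes tested, with the axis cut at -2 and 2. The curves of the members (median -0.53) and the replication genes (-0.46) lie left of the other mitotic genes (-0.24) and of all genes tested (0.0065).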

How the data were processed

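Gene expression was measured on Affymetrix mouse arrays in 6 Hunk KO and 6 Hunk WT samples of Myc mammary tumours. The deposited values are log2 signals, and GCRMA is the only tool named per the submitters' processing notes, with no version. They were used without further normalization or pseudocount, and GCRMA compresses differences near background. No batch is named for the arrays. The background of an array was its highest Bacillus control probe set, and a gene at background on all arrays of a group was given only as a bound.

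Of 22690 probe sets, 20393 had 1 symbol in the platform annotation, 691 several and 1606 none listed, and 20364 were found in the RefSeq table (GRCm38.p6). The 64 control probe sets were left out. A gene was its probe set of highest mean, and entered the test where that mean exceeded 3.98, the median over probe sets. Groups were compared over 6825 genes with limma 3.58.1 (lmFit, eBayes with trend; R 4.3.3) in a model with no term but group, and p-values were adjusted by Benjamini-Hochberg at a threshold of 0.05. The fit was tested on simulated data. Permutation tests were exact over all splits of 6 against 6.

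The members, the 12 gene lists and the tests were chosen with earlier results of these data known. By rule, values by array are given for members that passed, members whose groups did not overlap, any member higher in the knockout, the largest change in each role group and the members at the filter. Genes of the other mitotic and replication lists are named where they passed or had the largest change in each direction. Other values named beside these, such as those of Cenpa, Cdk1, Mki67, Prc1, Ndc80 and the second probe sets, were chosen after they were seen. The alternatives were other filters, moderation, normalizations, array weights, control differences as covariates, a replicate block, knockout arrays 4 and 5 averaged, other probe set choices and each array left out. Testing every probe set singly was added after seeing the data. Figures were drawn with matplotlib 3.10.9.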

Additional observations from a re-analysis of the deposited data

Results flagged for a closer look

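An array stood far from the other 5 of its group (a gap to the nearest array, as a share of the group's range, above Dixon's 95% critical value) for 13 of the 94 group values looked at, and chance flags about 1 in 20. Knockout array 1 was such an array for 4 members, high for Ndc80 (6.09), Pttg1 (9.92) and Kif4 (6.36) and low for Nuf2 (4.20). Knockout array 6 was low for Cdc25c (2.89) and Nek2 (4.07), and knockout array 5 for Kif2c (6.27) and Kif23 (5.98). In the wild type, array 2 was high for Foxm1 (6.33) and Nuf2 (5.15), array 1 was low for Nek2 (3.89), array 6 for Bub1 (5.68) and array 5 for Ect2 (6.27). None of the 5 members that fell was among them, nor was the beta-actin difference or the mean over the members.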

How the results depend on the processing

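The main counts were 228 genes called, 5 members, 4 other mitotic and 3 replication genes lower. They became 112, 3, 1 and 0 with no expression filter, 72, 0, 1 and 0 with the beta-actin covariate, 46, 0, 0 and 0 with the Gapdh covariate, 124, 3, 2 and 1 with knockout arrays 4 and 5 averaged, and 69, 1, 0 and 1 with the replicate block. Array weights gave 390 genes, 10 members and 8 other mitotic genes, and the 75th percentile filter 1 replication gene. Without each array in turn the counts were 94 to 210, 3 to 10, 1 to 6 and 0 to 3, and genes called fell below 150 without knockout array 4, 5 or 6 (137, 134 and 131) or wild-type array 4 or 5 (94 and 149). The members' median change was -0.17 with the beta-actin covariate and between -0.62 and -0.35 under all other settings. Where 0 other mitotic or replication genes were called in limma, 8 to 21 had an unadjusted p under 0.05, with no share of all genes beside these counts. Centring the arrays moved the lower share of calls from 50.4% to 64.9%.

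Single members turned positive in some fits. With the beta-actin covariate Ccnb2 was 0.053, Ccna2 0.37, Melk 0.39, Aurka 0.36, Plk1 0.40, Bub3 0.13, Ndc80 0.59, Ube2c 0.24, Pttg1 0.69, Cdca3 0.0046, Kif4 0.47, Tpx2 0.085, Racgap1 0.021 and Prc1 0.11. With the Gapdh covariate Nek2 was 0.071, Kif4 0.060 and Prc1 0.13. Bub3 was 0.090 without x and s probe sets, Kif23 0.022 with probe sets averaged, and Prc1 0.013 with quantile normalization. Without 1 array Nek2 ran from -0.22 to 0.0012 and Prc1 from -0.11 to 0.067. The cause was not tested. Cdc20 missed the threshold without x and s probe sets (adjusted p = 0.0519), and Kif11 with probe sets averaged (0.0614). With the replicate block Cdc20, Kif11, Cenpf, Mad2l1 and Ttk had adjusted p of 0.0648 to 0.0863, and Cenpa was the member called. Arrays with the same number had correlations of -0.04 to 0.14 between their deviations from group means. Of the 6 knockout arrays, 3 correlated best with their own number. These values cannot settle whether the numbers are pairs. The labels state no pairing, and the numbers were not taken as pairs in the main fit. Signals near background limit Cenpe, Nek2, Nuf2 and Ndc80.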
